A study of Arabidopsis thaliana with 8 samples.

Results

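The core structure of aliphatic glucosinolates, the sulfur-rich defence compounds that Arabidopsis builds from chain-elongated methionine, is assembled by a short series of enzymes, and the transcripts of 10 of them were compared between wild type leaves and leaves labelled as depleted in NAA50. The 10 genes were chosen by locus identifier in pathway order, and all 10 were among the 27826 loci in the table, with 1 value per array. Leaves came from rosettes of Arabidopsis thaliana grown on soil in short days for 7 weeks and frozen 2 h after the light came on. The 4 wild type arrays carried the accession name Col-0. The other 4 carried the ecotype entry animaa50 and were described as a mutant whose NAA50 steady-state level is depleted. NAA50 is an N-terminal acetyltransferase. The sources used here do not give how the depletion was brought about or whether each array held leaves of separate plants. The p-values therefore cover only the spread from array to array, which may be technical.

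Glucosinolate core synthesis begins in the endoplasmic reticulum membrane, where a cytochrome P450 of the CYP79 family turns the amino acid into an aldoxime and a P450 of the CYP83 family activates it. The activated product is joined to glutathione, trimmed by a gamma-glutamyl peptidase and cleaved by a C-S lyase. The resulting thiohydroximate then receives a glucose and finally a sulfate. The aliphatic branch uses methionine derivatives and the indolic branch uses tryptophan. The branches have their own P450s but share the C-S lyase SUR1 and the peptidase GGP1, which also serves synthesis of the phytoalexin camalexin. In leaves the branches are under separate groups of MYB transcription factors.

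Values are the log2 expression values made by RMA, in which the array median was 2.73, and a negative difference means a lower level on the arrays labelled NAA50-depleted. The NAA50 transcript itself (AT5G11340) was 4.71, 4.54, 4.23 and 4.75 on the wild type arrays and 10.43, 10.52, 10.24 and 10.33 on those labelled depleted, a 56.7-fold higher level (adjusted p = 3.47e-09, limma). It therefore ran against the label if the label refers to transcript, and each direction below refers to the arrays by their label. Leaf mesophyll markers were bright in both groups (10.25 to 13.33), none of the 4 passed the test, and root hair and flower markers stayed between 1.02 and 2.01. Pearson correlations across loci were at least 0.979 within groups and at most 0.967 between them.

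Of the 10 core enzyme genes, 8 fell and none rose on the arrays labelled NAA50-depleted, at an adjusted p under 0.05 in limma over all loci. Over all 27826 loci, 7.58% were lower and 6.95% were higher by the same test. After cyclic loess normalization 1559 loci were lower and 2267 higher, against 2108 and 1934 as deposited, and 8 members were lower in either case. Among the brighter loci, with a mean log2 value above 4, the share lower was 15.6%, and 5 of the 6 members in that range fell. The 8 genes that fell were also those whose groups did not overlap, an arrangement that 10.4% of all loci showed. The median difference of the 10 genes was -0.78 on the log2 scale, while that of all loci was -0.03. The exceptions were the P450 gene CYP79F2 and the peptidase gene GGP1. In whole leaves, fewer cells that make glucosinolates and less transcript per cell cannot be told apart.

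**Figure D1:**
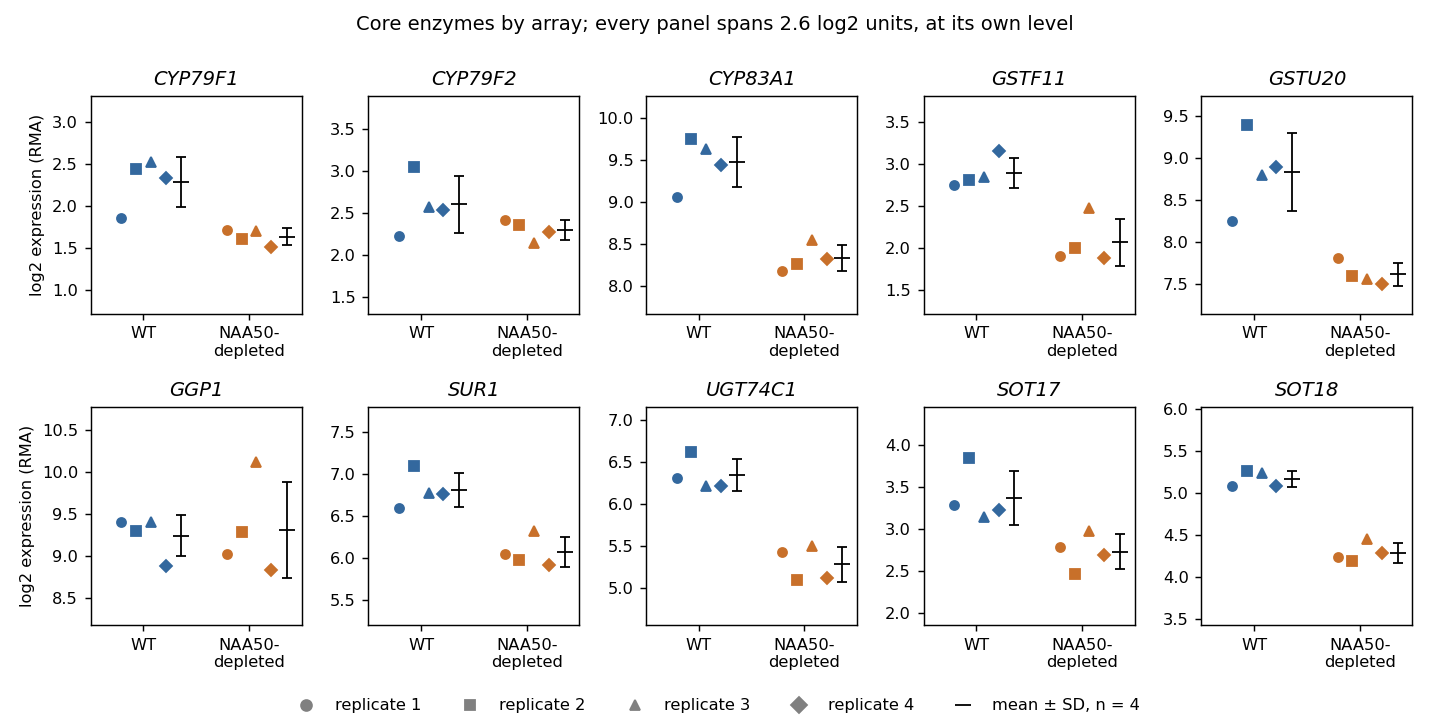
Log2 expression of the 10 core enzyme genes on each array, by group (blue wild type, orange labelled NAA50-depleted), with symbols for the replicate number and bars for the mean ± SD of 4 arrays. Groups are separate for all genes but CYP79F2 and GGP1, and each panel has its own level but the same span.

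The aldoxime-forming step is carried by CYP79F1 and CYP79F2, closely related genes that lie next to each other with no protein-coding gene between them. CYP79F1 (AT1G16410) accepts short- and long-chain methionine derivatives. Its log2 values were 1.86, 2.44, 2.53 and 2.34 on the wild type arrays and 1.72, 1.61, 1.71 and 1.51 on the arrays labelled depleted. The groups did not overlap, and wild type replicate 1 lay closest to the depleted arrays, 0.14 above the highest of them. The difference was -0.65 ± 0.15 (SE, n = 4 arrays per group; adjusted p = 0.0131, limma), a 1.57-fold decrease. All 8 values lay below the array median of 2.73, and only 2 of the depleted arrays exceeded the 25th percentile of 1.66, which all 4 wild type arrays did. The sources used here give no signal over background, and the size of this fall is less certain than its direction.

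CYP79F2 (AT1G16400) acts on the long-chain derivatives. It measured 2.22, 3.05, 2.57 and 2.53 in wild type and 2.41, 2.35, 2.14 and 2.27 on the arrays labelled depleted. The groups overlapped, since wild type replicate 1 lay below 3 of the depleted arrays, and the high value was that of wild type replicate 2. The difference of -0.30 ± 0.17 (SE, n = 4 arrays per group, 95% interval -0.66 to 0.06) did not pass the test (adjusted p = 0.291, limma). Leaving out wild type replicate 2 gave -0.15 and leaving out wild type replicate 1 gave -0.43, and neither passed. How far the probes of these neighbouring paralogs tell them apart was not examined.

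CYP83A1 (AT4G13770), the P450 that oxidises the aldoximes of the aliphatic branch, was among the members with the clearest decrease. Wild type arrays gave 9.06, 9.75, 9.63 and 9.44, and arrays labelled depleted gave 8.18, 8.26, 8.55 and 8.32. The lowest wild type array stood 0.51 above the highest depleted array. The level on the depleted arrays was 45.3% of wild type, a log2 difference of -1.14 ± 0.16 (SE, n = 4 arrays per group, adjusted p = 0.000612, limma).

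The conjugation with glutathione has been assigned to GSTF11 and GSTU20, glutathione transferases of the phi and tau classes. GSTU20 (AT1G78370) showed the largest difference of the 10 genes in this fit. That rank turned on wild type replicate 2, without which CYP83A1 was at -1.05 and GSTU20 at -1.03. GSTU20 measured 8.24, 9.39, 8.79 and 8.89 in wild type and 7.81, 7.59, 7.56 and 7.49 on the arrays labelled depleted. Wild type replicates 1 and 2 stood far apart, whereas the depleted arrays lay within a narrow band below all of them. The difference was -1.21 ± 0.20 (SE, n = 4 arrays per group; adjusted p = 0.00206, limma), a 2.32-fold decrease that ranked 268 from the lowest among the differences of 27826 loci. GSTF11 (AT3G03190) gave 2.75, 2.81, 2.85 and 3.15 in wild type and 1.90, 2.00, 2.48 and 1.88 on the depleted arrays. All wild type values lay just above the array median of 2.73 and all depleted values below it, with depleted replicate 3 the highest of its group. The difference was -0.83 ± 0.16 (SE, n = 4 arrays per group, adjusted p = 0.00425, limma), and its size carries the same reservation as that of CYP79F1.

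GGP1 (AT4G30530), the gamma-glutamyl peptidase that trims the glutathione conjugate, had the difference closest to 0 of the 10 genes. It measured 9.40, 9.29, 9.40 and 8.88 on the wild type arrays and 9.02, 9.28, 10.12 and 8.83 on those labelled depleted. The groups overlapped, and depleted replicate 3 exceeded every other array. The difference was 0.07 ± 0.25 (SE, n = 4 arrays per group, 95% interval -0.48 to 0.61, adjusted p = 0.912, limma). Its sign turned on single arrays: without depleted replicate 3 it was -0.20, and without wild type replicate 4 it was -0.05, and neither passed the test. The interval leaves out a decrease as large as the one fitted for CYP83A1.

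SUR1 (AT2G20610), the C-S lyase that both branches use, was among the 8 genes that fell. Wild type values were 6.60, 7.09, 6.77 and 6.76, and depleted values were 6.05, 5.98, 6.32 and 5.91. Every depleted array lay below every wild type array, by at least 0.28. The difference was -0.74 ± 0.14 (SE, n = 4 arrays per group, adjusted p = 0.00406, limma), or 1.67-fold. Its course over the arrays was the one nearest to the median of the 10 genes, with a root mean square distance of 0.04 log2 units after each gene was set against its wild type mean, though SUR1 is itself among the genes that form that median.

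UGT74C1 (AT2G31790), a glucosyltransferase of the aliphatic branch, had the widest gap between the groups of all 10 genes, 0.71. It measured 6.31, 6.62, 6.21 and 6.21 in wild type and 5.42, 5.09, 5.50 and 5.12 on the arrays labelled depleted. The level fell to 48.1% of wild type, a log2 difference of -1.06 ± 0.14 (SE, n = 4 arrays per group, adjusted p = 0.000516, limma).

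**Figure D2:**
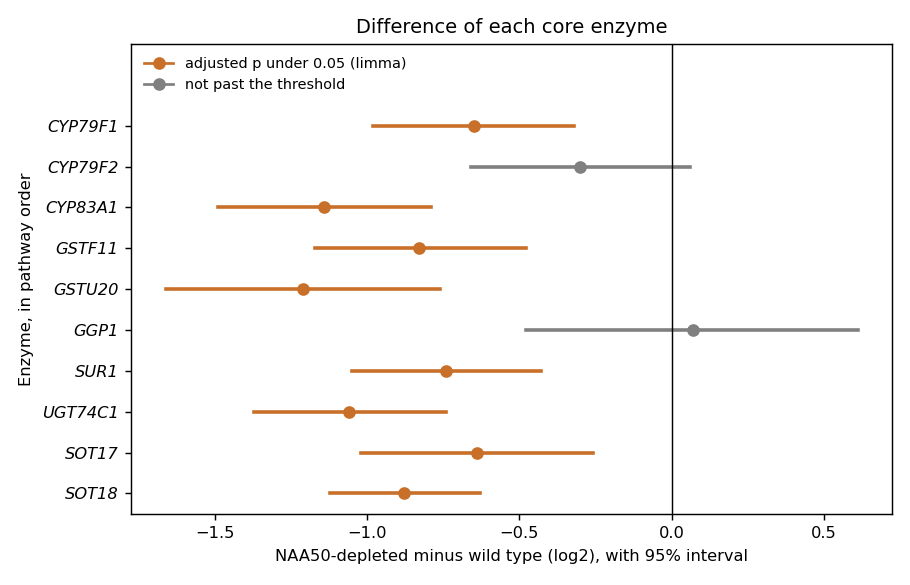
Differences between the groups on the log2 scale for the 10 core enzyme genes in pathway order, with 95% intervals from limma. The intervals of CYP79F2 and GGP1 include 0, and those of the 8 genes that fell lie below 0.

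The last step, transfer of sulfate onto the desulfo-glucosinolate, is carried for the aliphatic branch by the sulfotransferases SOT17 and SOT18. SOT18 (AT1G74090) varied least within its groups, with 5.09, 5.27, 5.24 and 5.09 in wild type and 4.24, 4.19, 4.46 and 4.29 on the depleted arrays. The groups stood 0.63 apart. The difference was -0.88 ± 0.11 (SE, n = 4 arrays per group, adjusted p = 0.000346, limma), or 1.84-fold. SOT17 (AT1G18590) measured 3.28, 3.85, 3.14 and 3.22 in wild type and 2.79, 2.46, 2.97 and 2.69 on the depleted arrays. The groups did not overlap, and the high value was again that of wild type replicate 2. The difference was -0.64 ± 0.17 (SE, n = 4 arrays per group, adjusted p = 0.0284, limma). The depleted arrays lay at the array median, with 2 of 4 above it, so its size is less certain too. Its call was the least secure of the 8: it was lost without wild type replicate 2 (-0.48), without depleted replicate 1 (-0.66), 2 (-0.55) or 4 (-0.63), and with the replicate number as a block (adjusted p = 0.0716).

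The differences of the 8 genes that fell ran from -1.21 for GSTU20 to -0.64 for SOT17. Of the pairs among them that were compared within arrays, described further on, none passed after adjustment. CYP83A1 against SUR1 was at the smallest p that 4 against 4 arrays can give, so that outcome is limited by the test. Of these 8 genes, 6 ranked among the 1000 lowest differences of all loci. The arrays also differed within each group in a way that the 10 genes shared in part. Wild type replicate 1 was the lowest wild type array for 6 of the 10 genes and wild type replicate 2 the highest for 7, where over all loci they were so for 27.8% and 23.4%. Depleted replicate 3 was the highest of its group for 7 genes and depleted replicate 4 the lowest for 5, against 24.7% and 24.6% of all loci. Set against the wild type means, the median gene lay at -0.84, -0.90, -0.53 and -0.89 on depleted replicates 1 to 4 and at -0.17, 0.28, -0.03 and -0.05 on wild type replicates 1 to 4. These medians over the 10 genes therefore did not overlap between the groups, as the 8 genes that fell did not singly. The count of genes that fell was 7 or 8 with any single array left out, and SOT17 was the gene lost where it was 7.

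**Figure D3:**
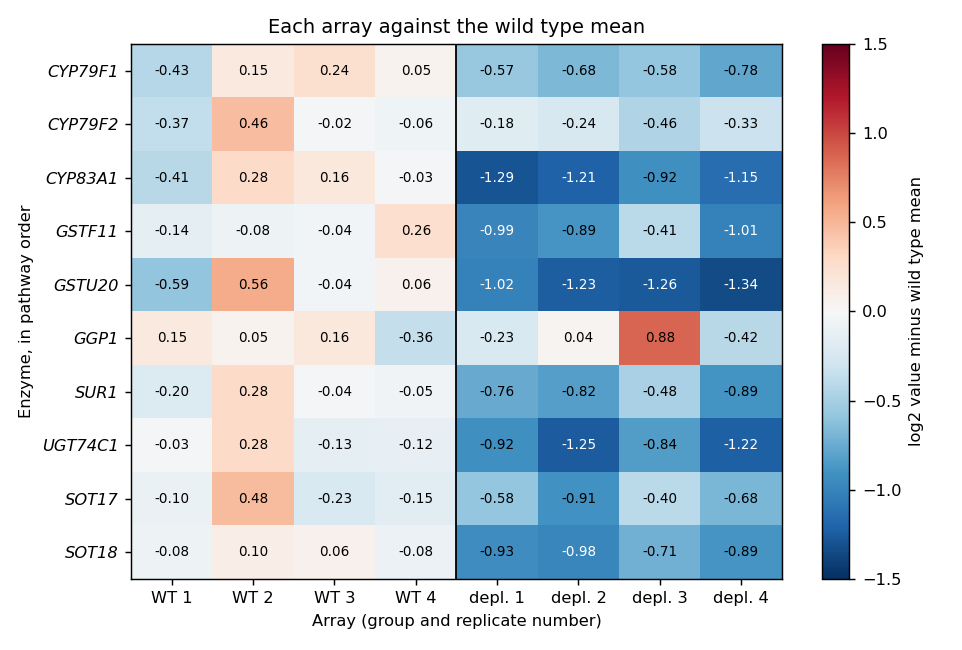
Log2 value of each core enzyme gene on each array minus that gene's wild type mean, with columns for the 8 arrays and blue for lower. Depleted replicate 3 is the highest depleted column for 7 of 10 genes and stands at 0.88 for GGP1, while wild type replicate 2 is above the mean for 9 of 10 genes.

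Whether genes of the core pathway changed unequally was tested with the log2 ratio of paired genes within each array, for 10 pairs, by a two-sided exact permutation test over the 70 assignments of the arrays. None passed after Benjamini-Hochberg adjustment over the 10 pairs. The smallest p that 4 against 4 arrays can give is 0.0286, and 4 pairs reached it, with an adjusted p of 0.0714 each. No wider separation could have brought these 4 pairs under 0.05 after adjustment, so the test could not decide on them. The pairs were chosen with earlier results of these data known, so their p-values are no independent support for unequal changes. CYP83A1 differed from GGP1 by -1.21 ± 0.30 (SE, n = 4 arrays per group) and from SUR1 by -0.40 ± 0.10. Against CYP83B1, its counterpart in the indolic branch, CYP83A1 differed by -0.78 ± 0.19, and UGT74C1 differed from the glucosyltransferase UGT74B1 by -0.48 ± 0.16. In these 4 pairs the ratio was lower on every depleted array than on every wild type array, in part narrowly. Set against its wild type mean, the ratio of CYP83A1 to SUR1 was -0.21 on wild type replicate 1 and -0.25 on depleted replicate 4. That of UGT74C1 to UGT74B1 was -0.11 on wild type replicate 3 and -0.14 on depleted replicate 1.

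The other 6 pairs overlapped between the groups. CYP79F1 differed from CYP79F2 by -0.35 ± 0.14 (SE, n = 4 arrays per group; exact p = 0.0571, adjusted p = 0.114). GSTF11 differed from GSTU20 by 0.39 ± 0.29 (exact adjusted p = 0.321) and SOT17 from SOT18 by 0.24 ± 0.16 (exact adjusted p = 0.286). SOT18 differed from SOT16, the sulfotransferase of the indolic branch and its direct neighbour in the genome, by -0.48 ± 0.25 (exact adjusted p = 0.143). CYP79F1 against CYP79B2, which forms the aldoxime from tryptophan, gave -0.17 ± 0.44 (exact adjusted p = 0.730). GSTF11 against GSTF9, a phi class transferase placed in the indolic branch, gave -0.02 ± 0.15 (exact adjusted p = 0.943). With single arrays left out, GSTF11 against GSTU20 ran from 0.18 to 0.54, SOT17 against SOT18 from 0.14 to 0.36 and SOT18 against SOT16 from -0.61 to -0.28. CYP79F1 against CYP79B2 ran from -0.42 to 0.16 and GSTF11 against GSTF9 from -0.14 to 0.03, so neither kept its sign. A p that misses the threshold does not show that the paired genes changed alike. Ratios with CYP79F1, CYP79F2, GSTF11 or SOT17 are also less certain in size, since these genes lay near or below the array median.

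**Figure D4:**
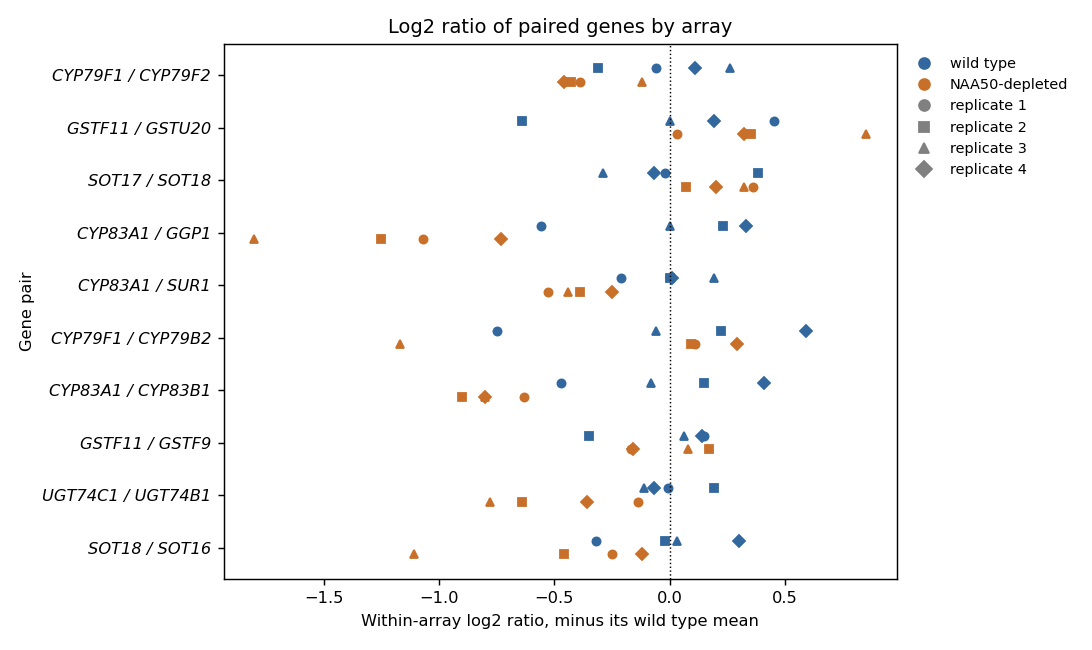
Log2 ratio of the paired genes on each array, minus the wild type mean of that ratio, for wild type (blue) and arrays labelled NAA50-depleted (orange). The groups separate for CYP83A1 over GGP1, SUR1 and CYP83B1 and for UGT74C1 over UGT74B1, and depleted replicate 3 gives the most negative ratio in pairs with GGP1, CYP79B2, UGT74B1 and SOT16.

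Of the 8 core enzymes listed for the indolic branch, 2 fell and none rose, where 7.58% of all loci were lower and 15.6% of those with a mean above 4. These were GSTF9 (AT2G30860), at -0.81 ± 0.16 (SE, n = 4 arrays per group, adjusted p = 0.00535, limma), and UGT74B1 (AT1G24100), at -0.58 ± 0.17 (adjusted p = 0.0383). CYP83B1 differed by -0.36 ± 0.17 (adjusted p = 0.207), CYP79B2 by -0.48 ± 0.32 (adjusted p = 0.409) and SOT16 by -0.39 ± 0.24 (adjusted p = 0.354). CYP79B3 (-0.17), GSTF10 (0.21) and GGP3 (0.11) did not pass either. The count of genes that fell turned on single arrays. It was 4 without depleted replicate 3, and it was 1 without any other single array, which left GSTF9. The median of this list was -0.38. The list leaves out SUR1, which fell, and GGP1, which did not pass. Both branches use these genes, but they are counted only in the aliphatic list, so the counts of the branches depend in part on that assignment. How far each listed gene is particular to the indolic branch was not examined.

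The core enzymes stand between the steps that lengthen methionine and those that modify the side chain. Counts for both stand against 7.58% of all loci lower and 6.95% higher. Among loci with a mean above 4 the share lower was 15.6%. Of the 9 chain elongation genes 5 fell and none rose, with a median of -0.90, among them the isopropylmalate isomerase subunit IPMI SSU3 (-1.39 ± 0.21, SE, n = 4 arrays per group) and the plastid transporter BAT5 (-1.28 ± 0.20). Without wild type replicate 1, which was the lowest wild type array for 8 of these genes, all 9 fell. Of the 9 measured genes of side chain modification 3 fell and none rose, namely the S-oxygenases FMOGS-OX3 (-1.78 ± 0.19), FMOGS-OX1 (-1.40 ± 0.31) and FMOGS-OX2 (-0.96 ± 0.19), the last named after its value was seen. Of the 9 measured side chain genes 5, FMOGS-OX2 among them, had a mean below the array median, where the size of a difference is less certain. AOP2 was not analysed here.

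Among 9 regulators 3 fell and 1 rose, where 7.58% of all loci were lower and 6.95% higher. MYB29 (AT5G07690) and MYB28 (AT5G61420), activators of the aliphatic branch, differed by -1.96 ± 0.20 and -1.78 ± 0.18 (SE, n = 4 arrays per group), and both decreases passed the test. Their relative MYB76 differed by -0.44 ± 0.24 and did not pass (adjusted p = 0.289, limma). MYC4 (AT4G17880), a bHLH factor that acts with these MYBs, fell by 1.21 ± 0.19 and was named after its value was seen, whereas MYC2 and MYC3 differed by -0.10 ± 0.33 and -0.02 ± 0.12. MYC4 measured 3.53, 2.63, 3.32 and 3.22 in wild type and 1.93, 2.28, 1.90 and 1.75 on the depleted arrays, around and below the array median of 2.73. SDI1 (AT5G48850), a sulfur-deficiency gene whose product represses the aliphatic branch, rose by 2.14 ± 0.33, from 3.68, 3.96, 4.38 and 5.36 to 6.32, 6.03, 7.03 and 6.54. Of the indolic regulators MYB51 rose (2.71 ± 0.36) and MYB34 fell (-1.96 ± 0.32), while MYB122 did not pass.

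Of 5 genes that supply co-substrates to the core steps, 2 fell and 1 rose. Over all loci 7.58% were lower and 6.95% higher, and 15.6% were lower among loci with a mean above 4. The adenosine phosphosulfate kinases APK1 and APK2 make the sulfate donor of SOT17 and SOT18, and the phosphatase SAL1 removes the by-product of sulfate transfer. SAL1 (-1.08 ± 0.20) and APK1 (-0.76 ± 0.21) fell and the glutathione synthetase gene GSH2 rose (0.61 ± 0.11; SE, n = 4 arrays per group, limma). APK2 differed by -0.78 ± 0.24 (adjusted p = 0.0542). The count of genes that fell was 3 without wild type replicate 1 or depleted replicate 3, and 1 without any other single array, where APK1 was lost. Of 4 genes of camalexin synthesis, the glutathione transferase GSTF6 rose (1.87 ± 0.13) and none fell, and 2 rose without depleted replicate 3.

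**Figure D5:**
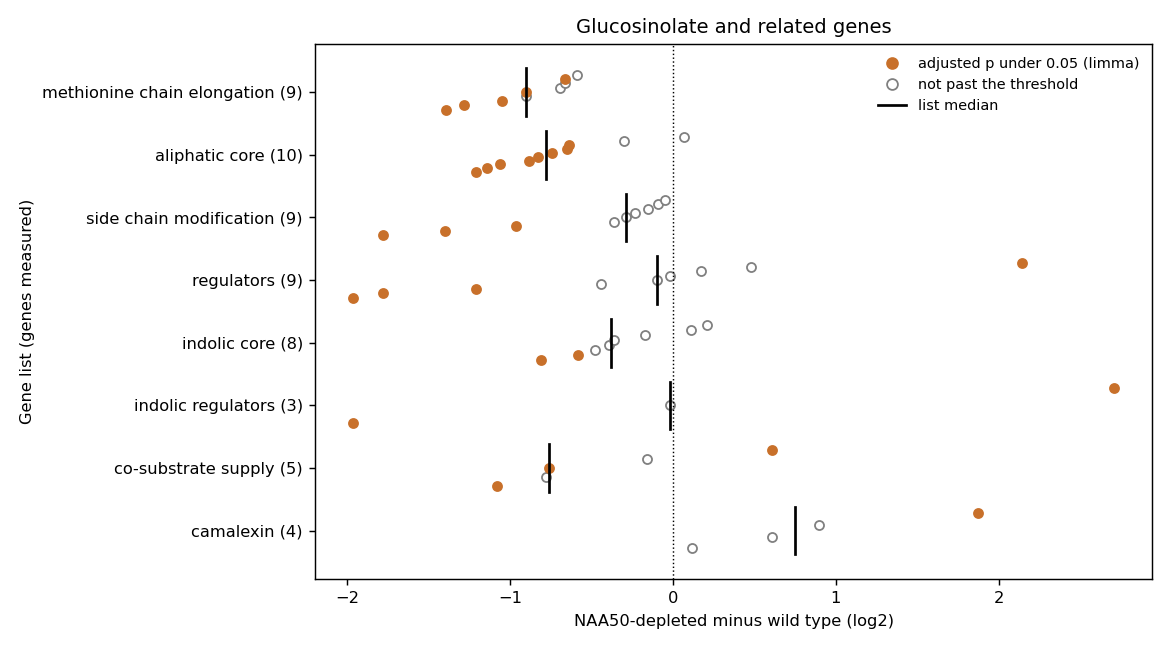
Differences between the groups on the log2 scale for the genes of 8 lists, with filled points past an adjusted p of 0.05, open points not past it, and a bar at each list's median. The core enzymes have a median of -0.78 and chain elongation one of -0.90, while regulators spread from -1.96 to 2.14.

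Most markers of other leaf cell types did not pass the test, and counts of those that did stand against the 7.58% of all loci that were lower, 15.6% among loci with a mean above 4, and the 6.95% that were higher. Of 6 epidermis markers 2 fell, the wax synthesis gene CER1 (-1.89 ± 0.32) and the lipid transfer protein gene LTP1 (-0.84 ± 0.12; SE, n = 4 arrays per group). The other 4 did not pass, with ATML1 at -0.22, PDF1 at 0.04, FDH at -0.04 and CER6 at -0.25. The sum of the 6 log2 values was 43.6 to 45.6 in wild type and 39.2 to 42.2 on the depleted arrays, a gap carried mostly by CER1 and LTP1. The guard cell list had 1 of 4 markers lower, the potassium channel gene KAT1 (-0.92 ± 0.21), with sums of 16.0 to 17.8 and 14.8 to 16.1. FAMA (-0.35), MYB60 (-0.45) and HT1 (0.06) did not pass. Of 5 vasculature markers the sulfate transporter gene SULTR2;2 rose (1.05 ± 0.17) and none fell, with sums of 22.9 to 25.9 and 24.1 to 26.5. SULTR2;1 (-0.54), SUC2 (0.11), APL (-0.01) and SEOR1 (0.09) did not pass. The myrosinase genes TGG1 (0.27) and TGG2 (0.52), markers of the cells that store the enzyme that breaks glucosinolates down, summed to 20.5 to 21.6 and 21.6 to 22.3, and neither passed. The lowest of the epidermis list was PDF1, at 1.33 to 2.74. The lowest value of any locus was 0.69 and no detection call was used, so whether the dimmest markers were expressed is unknown. The part of these cell types in the decrease of the core enzymes was not tested.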

How the data were processed

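Biotin-labelled RNA from 4 wild type and 4 NAA50-depleted leaf samples was hybridised to 1 array each, and groups and replicate numbers came from the sample titles. The values the authors deposited came from RMA, per the submitters' processing notes, and were taken as log2, the scale that RMA gives. The sources used here give no RMA version, chip definition or genome build. All 8 arrays held the same sorted values, so a change in total transcript cannot be seen. No scan date, slide or detection call was used here, and batch and genotype cannot be told apart where they coincide. The number of arrays limits the precision.

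Limma 3.58.1 in R 4.3.3 was fitted to all 27826 loci with the group as its only term (lmFit, eBayes). Two-sided p-values were adjusted over the whole table (Benjamini-Hochberg), and 0.05 was the threshold. The fit was tested on simulated data. Gene pairs were compared with an exact permutation test. Alternatives were a replicate block, cyclic loess, median centring, a filter on dim loci (4 or more arrays over the 25th percentile of all values, which all 10 members met), a trended robust variance, array weights and each array left out.

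The members, gene lists and pairs were chosen with earlier results of these data known. Of each list, the genes past the threshold with the 2 largest rises and the 2 largest falls were named. So were all members, their pair partners, MYB28, MYB29, MYB76, and the 5 loci closest to the median member. MYC2, MYC3, MYB122, APK2, CYP79B3, GSTF10, GGP3, the marker genes that did not pass and the genes noted as such were named after their values were seen. Locus identifiers were matched to the TAIR10.1 gene table, in which 27241 were found. It names neighbours and symbols only, and UGT74C1 and the isomerase subunits carry the names used in the field.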

Additional observations from a re-analysis of the deposited data

How the results depend on the processing

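The median member difference kept its sign under all 14 alternatives, and ran from -0.88 to -0.73 with 1 array left out. Of 140 values of the 10 members under these alternatives, 135 stayed on the same side of the threshold and 5, all of SOT17, lost it. The 14 alternatives and the counts of 140 and 135 include median centring, whose values were fixed in advance. All 8 arrays held the same sorted values, so centring could change no difference, and it is no check. With the replicate number as a block 7 members fell. Over all loci, deviations of same-numbered arrays correlated at -0.05 to 0.04 and those of differently numbered arrays at -0.065 to 0.104. No pairing by number was therefore seen over all loci, which does not exclude one that touches fewer genes. After cyclic loess 1 indolic core gene and 1 co-substrate gene fell, and with the trended robust variance 2 camalexin genes rose; the cause was not tested. With 1 array left out, 5 to 9 chain elongation genes, 1 to 4 indolic core genes and 1 to 3 co-substrate genes fell, and 1 or 2 camalexin genes rose. The pair tests have no leave-one-out p, since 3 against 4 arrays cannot go below 0.0571, and 4 same-numbered pairs cannot go below 0.125. Signal over background is unknown for every gene, which bears most on CYP79F1, CYP79F2, GSTF11 and SOT17, near or below the array median.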

Other observations

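The array that stood highest for most core enzymes among those labelled depleted, replicate 3, was also the highest of its group for 7 of 8 indolic core genes and 4 of 5 co-substrate genes, against 24.7% of all loci. Among the depleted arrays it was the lowest for 3 of 4 camalexin genes, against 26.8% of all loci. Wild type replicate 1 was the lowest of its group for 8 of 9 chain elongation genes and 1 of 8 indolic core genes, against 27.8% of all loci. These are counts over genes of the same 8 arrays and carry no test.

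Outside the gene lists, the loci with a mean log2 value above 4 whose course over the 8 arrays lay closest to the median core enzyme were the homeodomain gene BLH1, the vesicle trafficking gene GNL1, RGD3, AT5G18940 and AT1G21440. Their root mean square distances from it were 0.113 to 0.124 log2 units. They were picked for this closeness, so their differences between the groups carry no further information.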
